A study of Mus musculus with 2 samples.

Results

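Chemokines and colony-stimulating factors are secreted or shed proteins through which tumor cells draw in and sustain neutrophils, monocytes, macrophages and osteoclast precursors. The 10 genes named for this account were Cxcl1, Cxcl5, Cxcl16, Ccl2, Ccl7, Ccl20, Cx3cl1, Csf1, Csf2 and Csf3. They were taken by symbol from a table of 14197 genes measured in 4T1 cells, a murine breast cancer (BC) line, and 7 of the 10 were found. Ccl2, Ccl7 and Ccl20 were not analysed here. The AS-treated group was 1 library of wild-type 4T1 cells given 20 μM astragalin (AS), a plant flavonoid, for 24 h in vitro. The control group was 1 library of the same wild-type line given the vehicle. Both libraries came from 1 cell line in culture, so neither holds the stromal or immune cells of a tumor.

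Chemokines are small proteins named after the spacing of their first cysteines (CC, CXC, CX3C), and they guide leukocytes that carry the matching G protein-coupled receptor. Cxcl1 and Cxcl5 bind CXCR2 and draw in neutrophils. Cxcl16 and Cx3cl1 (fractalkine) are made as membrane proteins on a mucin stalk and can be shed by ADAM proteases. The colony-stimulating factors act on the blood lineages: Csf1 (M-CSF) on macrophages and osteoclast precursors, Csf2 (GM-CSF) on granulocytes and macrophages, and Csf3 (G-CSF) on neutrophils. The 4T1 line is known for the neutrophil expansion that its G-CSF causes in mice. Transcripts of this class are often switched on by NF-κB and kept short-lived by AU-rich elements after the coding sequence, which are built of ATTTA units in the DNA spelling.

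None of the 7 genes differed between the libraries by as much as either fold threshold used in the study, 2-fold and 1.5-fold. Of all genes, 3.56% were higher and 2.01% lower by at least 1.5-fold. All 7 were slightly higher in the AS-treated group as deposited, from 3.23% for Cxcl5 to 29.0% for Cxcl1, as were 60.9% of all genes. With other library scalings the count of 7 fell to as low as 5, with upper-quartile scaling, where the share of all genes fell to 48.3%. The order of their levels was the same in both libraries. Values are RPKM, read numbers divided by exon length and by library size. A log2 fold change compares AS with vehicle on the log2(RPKM + 0.1) scale, on which the change of low genes is understated. With 1 library per condition no test of the treatment was possible, and the 95% intervals given cover counting error only, not the spread between dishes of cells. Reads without molecular identifiers are also not independent molecules.

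The libraries were of similar depth. Their sizes, worked out from the RPKM values, were 44909683 reads for AS and 50820728 for the vehicle, a ratio of 1.13. Every gene had reads in both. The median log2 fold change of all genes was 0.07, so a typical gene was also slightly higher with AS, and TMM normalization (a scaling that assumes most genes to be equal) lowered the median by 0.066. The epithelial identity of the line was present, with all 10 epithelial markers analysed and Krt18 and Epcam at 707 and 335 RPKM with AS and 902 and 357 RPKM with the vehicle. Of 14 leukocyte markers 6 were analysed. Ptprc, which encodes the pan-leukocyte protein CD45, was the lowest of the 6, at 0.116 RPKM with AS and 0.114 RPKM with the vehicle. Cd68 was the highest of the 6, at 24.0 RPKM with AS and 28.1 RPKM with the vehicle.

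Sequences of the kinds named above, AU-rich stretches and promoters, are shown first, and whether they control these transcripts in 4T1 cells was not tested. The AU-rich stretch after the stop codon is given for the 4 genes with most ATTTA units per kilobase, as the 30 bases with most such units, with every ATTTA in capitals and T in place of U.
Csf2: aaatATTTATTTATTTATTTATTTAttttt
Cxcl1: tcctATTTATTTAtgtATTTATTTAttcca
Csf3: gtttATTTAtctctATTTAatATTTAtgca
Cxcl5: tctcacaagtgtATTTAgcaaaaatatttc
These are from GENCODE M21 transcripts on GRCm38, all within the 3′ UTR, at chr11:54247324-54247353 on the minus strand for Csf2, chr5:90892607-90892636 on the plus strand for Cxcl1, chr11:98702988-98703017 on the plus strand for Csf3 and chr5:90760647-90760676 on the plus strand for Cxcl5. The stretch of Csf2 holds 5 overlapping units, that of Cxcl1 4, that of Csf3 3 and that of Cxcl5 1. The stretch of Csf1, which is not shown, holds 2. Over the whole 3′ UTR, Csf2 had 9 units in 317 bases, or 28.4 per kilobase, and only 0.0543% of 11055 coding genes of the table had as many per kilobase. Cxcl1 had 7 units in 592 bases (11.8 per kilobase, a density reached by 0.597% of genes) and Csf3 had 6 in 669 bases (8.97 per kilobase, reached by 1.34%). Cxcl5 had 4.50 units per kilobase, Csf1 1.89, Cxcl16 1.41 and Cx3cl1 0.534, against a median of 1.28 over the coding genes. The density is a count of letters and no measure of decay.

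The promoter, from 250 bases before to 50 after the transcript start, was held by the RefSeq table (GRCm38.p6) for 4 of the 7 genes, Csf1, Cxcl1, Cx3cl1 and Csf2. It was searched on both strands for the AP-1 motif TGANTCA, the C/EBP-ATF motif TGATGNAA and the NF-κB consensus. The NF-κB letters were found for Cxcl1 and Csf1, the pair shown here because their differences between the libraries were the largest and among the smallest of the group, with the NF-κB matches in capitals.
Cxcl1, chr5:90890995-90891294, plus strand: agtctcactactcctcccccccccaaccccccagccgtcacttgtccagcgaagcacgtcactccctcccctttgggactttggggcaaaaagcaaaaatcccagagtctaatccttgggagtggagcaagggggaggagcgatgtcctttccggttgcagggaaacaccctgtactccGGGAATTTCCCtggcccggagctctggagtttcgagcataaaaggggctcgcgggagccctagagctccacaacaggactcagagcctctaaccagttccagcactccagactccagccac
Csf1, chr3:107760420-107760719, minus strand: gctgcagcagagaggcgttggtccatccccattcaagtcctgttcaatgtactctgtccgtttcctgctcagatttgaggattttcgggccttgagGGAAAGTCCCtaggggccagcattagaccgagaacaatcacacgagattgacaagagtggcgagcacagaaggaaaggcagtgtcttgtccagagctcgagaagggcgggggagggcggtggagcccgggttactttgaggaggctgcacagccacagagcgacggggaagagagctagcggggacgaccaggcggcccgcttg
In Cxcl1 a pair of overlapping matches began 71 and 70 bases before the start, and in Csf1 a single match began 154 bases before it. Of the 9680 promoters of genes in the table, 10.1% held the NF-κB letters, 4.96% the AP-1 letters and 2.08% the C/EBP-ATF letters. The last of these motifs and the AP-1 motif were in none of the 4 windows. For Csf2, however, the RefSeq window (chr11:54249850-54250149, minus strand) lies wholly upstream of the GENCODE M21 gene start at chr11:54249667. The bases next to that start were not searched, so nothing can be said of motifs there. A match of letters is a description of the sequence and not a site of binding.

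Cxcl5 and Cxcl1, the neutrophil attractants, were the most abundant of the 7 transcripts. Cxcl5 (chr5:90759360-90761624, plus strand, GRCm38) measured 103 RPKM in the AS library (8635 reads) and 99.98 RPKM in the vehicle library (9466 reads). It was among the 518 most abundant genes with the vehicle and the 485 most abundant with AS. Its log2 fold change was 0.05 (95% Clopper-Pearson interval 0.0036 to 0.088), below the median of all genes. As deposited, Cxcl5 differed least of the group between the libraries. With TMM normalization its log2 fold change turned to -0.02, and Csf1 then differed least (0.0042).

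Cxcl1 (chr5:90891241-90893115, plus strand) measured 40.2 RPKM in the AS library (3382 reads) and 31.1 RPKM in the vehicle library (2967 reads). The log2 fold change of 0.37 (interval 0.30 to 0.44) was the largest of the 7, and 11.5% of all genes had one as high or higher. It was 0.30 with TMM normalization (interval 0.23 to 0.37). Cxcl1 and Csf3 were the only members with more reads in the AS library than in the deeper vehicle library.

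The genes of Cxcl5 and Cxcl1 lie 129.6 kilobases apart on chromosome 5, and the 4 coding genes annotated between them, Ppbp, Pf4, Cxcl3 and Cxcl15, were not analysed here. There were 3.21 times as many Cxcl5 as Cxcl1 RPKM with the vehicle and 2.57 times as many with AS. This difference does not depend on how the libraries are scaled. The difference of their log2 fold changes, taken from reads, was 0.32 in favor of Cxcl1 (95% normal-approximation interval of the counts 0.24 to 0.40). Over all genes the middle 50% of log2 fold changes ran from -0.10 to 0.23, so a difference near this size is not particular to the pair.

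**Figure D1:**
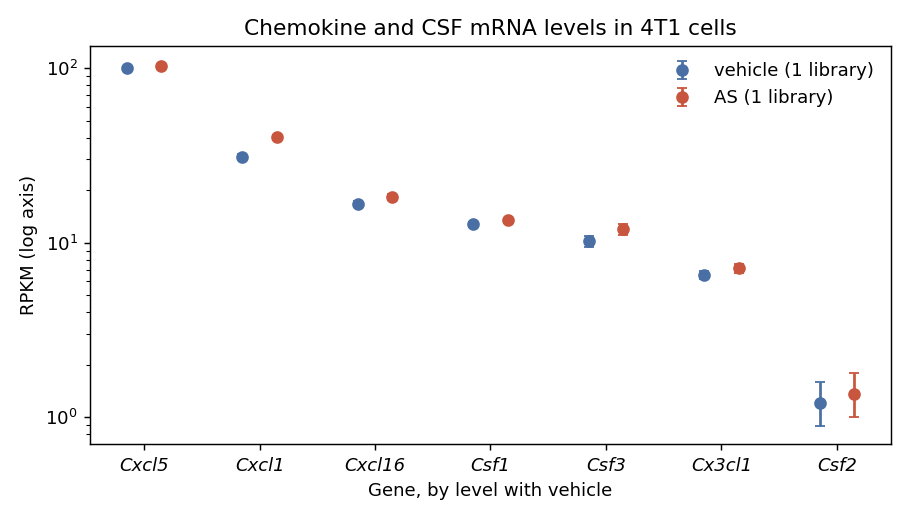
RPKM of the 7 chemokine and colony-stimulating factor genes (log axis) in the vehicle library (blue) and the AS library (red), 1 library each, with bars for the exact 95% Poisson interval of the reads. The order from Cxcl5 (99.98 and 103 RPKM) down to Csf2 (1.21 and 1.36 RPKM) is the same in both libraries.

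Cxcl16 and Cx3cl1, the membrane-bound chemokines, were nearly equal in the 2 libraries. Cxcl16 (chr11:70453983-70459984, minus strand), the ligand of CXCR6, measured 18.2 RPKM in the AS library (2466 reads) and 16.7 RPKM in the vehicle library (2570 reads). Its log2 fold change was 0.12 (interval 0.04 to 0.20). The annotation places 552 bases of Zmynd15 over it on the opposite strand, and the strand setting of the counting is not stated, so some of its reads may belong to that gene, which had 3.01 and 2.81 RPKM. Cx3cl1 (chr8:94772009-94782427, plus strand), the ligand of CX3CR1, measured 7.12 RPKM in the AS library (1257 reads) and 6.53 RPKM in the vehicle library (1304 reads), and a log2 fold change of 0.12 (interval 0.01 to 0.24). With TMM normalization both values were smaller, 0.05 for Cxcl16 and 0.06 for Cx3cl1, and both intervals then included 0. The ratio of Cxcl16 to Cx3cl1 was 2.55 with AS and 2.56 with the vehicle.

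Of the colony-stimulating factors, Csf1 and Csf3 were present at similar levels and Csf2 was the lowest of the 7, at rank 11572 with AS and 11722 with the vehicle among the 14197 genes by RPKM. Csf1 (chr3:107741048-107760469, minus strand), the factor that macrophages and osteoclast precursors depend on, measured 13.4 RPKM in the AS library (3186 reads) and 12.8 RPKM in the vehicle library (3428 reads). The log2 fold change was 0.07 (interval 0.0027 to 0.14), close to the median of all genes. It was 0.0042 with TMM normalization and -0.0060 with upper-quartile scaling.

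Csf3 (chr11:98701263-98703629, plus strand) measured 12.0 RPKM in the AS library (760 reads) and 10.2 RPKM in the vehicle library (730 reads). Its log2 fold change of 0.23 (interval 0.09 to 0.39) was the second largest of the 7, and 24.3% of all genes had one as high. TMM normalization gave 0.17 (interval 0.02 to 0.32).

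Csf2 (chr11:54247271-54249667, minus strand) had 49 reads in each library. Its levels of 1.36 RPKM (AS) and 1.21 RPKM (vehicle) differed only through the library sizes, and its log2 fold change of 0.17 had an interval from -0.42 to 0.78. In linear terms the interval ran from 0.746 to 1.72 times the vehicle level, so no difference in Csf2 was detectable at this depth. An antisense gene, Gm12223, overlaps 2068 bases of its span. Csf3 exceeded Csf2 by 8.78 times in RPKM with AS and 8.43 times with the vehicle.

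**Figure D2:**
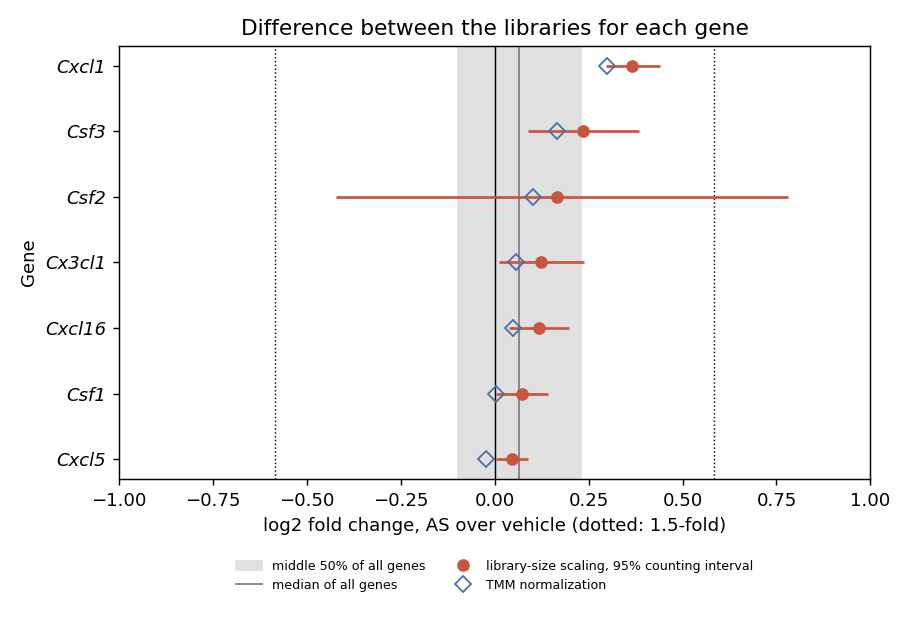
Log2 fold change of AS over vehicle for each of the 7 genes (red, with the 95% Clopper-Pearson interval of the reads) and after TMM normalization (blue diamonds), beside the median (0.07) and the middle 50% (-0.10 to 0.23) of all 14197 genes in grey. All 7 values lie inside the dotted lines at 1.5-fold, and Cxcl1 and Csf3 alone lie to the right of the grey band, Csf3 only just, while the value of Cxcl5 is below 0 after TMM normalization.

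Counted together, 0 of the 7 genes differed by more than 2-fold (a log2 fold change of 1), upward or downward, where 0.662% of all genes were higher and 0.31% lower by more than that. At 1.5-fold, the study's second threshold, the count of members was again 0 in both directions, against 3.56% of all genes higher and 2.01% lower. The median log2 fold change of the 7 genes was 0.12 and that of all genes 0.07, and 6 of the 7, Cxcl5 being the exception, lay above the median of all genes, where 50% of genes do by definition. All 7 were above 0, as were 60.9% of all genes. The counting interval lay above 0 for 6 genes, with Csf2 as the exception, against 37.6% of 14100 genes with known reads, and below 0 for none, against 19.7%. With TMM normalization 2 of the 7, Cxcl1 and Csf3, had an interval above 0, against 27.3% of genes, and 0 had one below 0, against 28.2%.

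**Figure D3:**
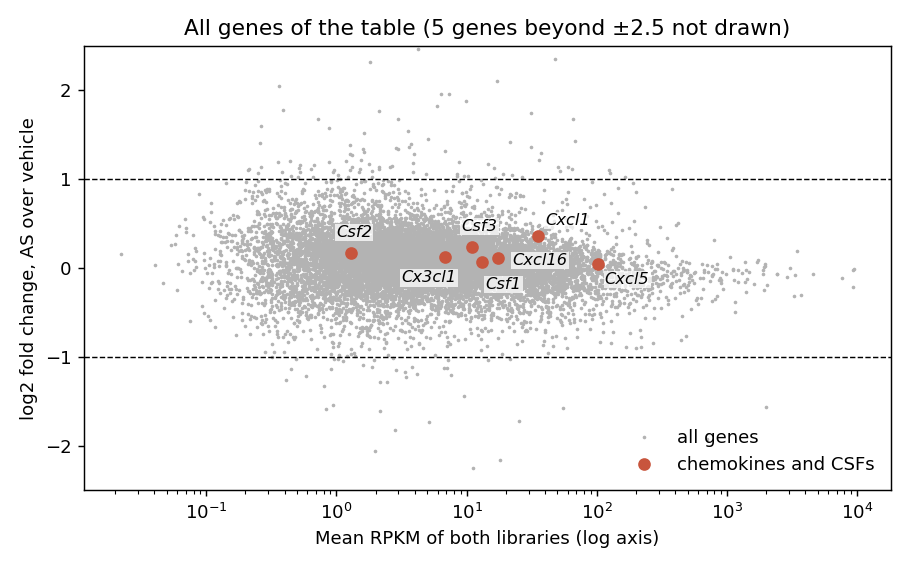
Log2 fold change of AS over vehicle against the mean RPKM of both libraries (log axis) for all genes (grey) and the 7 chemokine and colony-stimulating factor genes (red), with dashed lines at ±1. The 7 genes cover levels from about those of Csf2 to those of Cxcl5 and sit within the cloud of all genes, the highest being Cxcl1 at 0.37.

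Differences among the 7 genes were compared in all 21 pairs, and these do not depend on library scaling. In 6 pairs the 95% interval of the difference of log2 fold changes did not include 0. Cxcl1 was in 4 of them, exceeding Cxcl5 by 0.32, Csf1 by 0.29 (interval 0.19 to 0.39), Cxcl16 by 0.25 (0.14 to 0.36) and Cx3cl1 by 0.24 (0.11 to 0.37). Csf3 was in the other two, exceeding Cxcl5 by 0.19 (0.04 to 0.34) and Csf1 by 0.16 (0.0015 to 0.33). Between Cxcl1 and Csf3 the difference of 0.13 had an interval from -0.03 to 0.29. The intervals cover counting error and were not adjusted for the number of pairs. Pairs of other genes were not counted, so the 6 cannot be called particular to this group. For single genes, the counting interval lay above 0 for 37.6% and below 0 for 19.7% of 14100 genes.

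In order of level, the 7 genes ran Cxcl5, Cxcl1, Cxcl16, Csf1, Csf3, Cx3cl1 and Csf2, and the exact Poisson intervals of neighbours in that order did not overlap in either library. The closest were Csf1 (13.0 to 13.9 RPKM) and Csf3 (11.1 to 12.9 RPKM) with AS. The exon length behind an RPKM here is the union over all annotated transcripts, which for Cxcl1 is 1875 bases and takes in a retained-intron transcript, while its principal coding transcript has 953 bases. Per kilobase of the principal transcript, Cxcl1 would be at 79.0 RPKM with AS and 61.3 RPKM with the vehicle, and Cxcl5, with 1575 bases, at 122 and 118. Reads from outside the principal transcript could not be taken out, so these values are upper limits. The order of the 7 genes stayed the same on this scale, but the step from Cxcl5 down to Cxcl1 was smaller.

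Other chemokines of the mouse were mostly not analysed here, with values for 2 of 31. Ccl6, a CC chemokine of myeloid cells, had 2.57 RPKM with AS and 1.70 with the vehicle (207 and 155 reads), with a log2 fold change of 0.57 and an interval from 0.29 to 0.91. Without the added 0.1 RPKM its log2 ratio was 0.60, just past 1.5-fold. Ccl25, the ligand of CCR9, had 1.28 and 1.15 RPKM and a log2 fold change of 0.14 (interval -0.04 to 0.35). Receptors were analysed for 4 of 28 genes, none past 1.5-fold. Csf1r, the receptor of Csf1, had 0.378 RPKM with AS and 0.358 with the vehicle. Ackr3, a scavenging receptor, was the highest at 4.63 and 4.75 RPKM, and Cxcr3 had the largest difference, 0.45, with 61 and 48 reads and an interval from -0.05 to 1.10.

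Among 17 of 26 other factors that act on myeloid cells or osteoclasts, 0 differed by more than 2-fold, and 3 were higher and 0 lower by at least 1.5-fold. The 3 were Tnfrsf11b, Lcn2 and Vegfa. Tnfrsf11b encodes osteoprotegerin, the decoy receptor of RANKL, and had 0.490 RPKM with AS and 0.237 with the vehicle (62 and 34 reads). It differed by 0.81 on the log2 scale, and the interval of its reads, with no RPKM added, ran from 0.42 to 1.69. Without the added 0.1 RPKM its log2 ratio was 1.05, which is past 2-fold, so its call depends on that addition. Lcn2 (lipocalin 2), a neutrophil and epithelial protein that binds siderophores, had 14.2 and 8.72 RPKM (log2 fold change 0.70). Vegfa, the angiogenic growth factor, had 55.5 and 36.7 RPKM (0.59). These differences were larger than that of any of the 7 chemokine and colony-stimulating factor genes.

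Il1a, an alarmin that activates NF-κB in neighbouring cells, had 62.6 RPKM with AS and 53.2 with the vehicle (log2 fold change 0.24.) Il23a (0.15), S100a9 (0.37), Kitl (0.35), Il34 (0.13), Pthlh (0.10), Flt3l (0.05), Il1b (0.04) and Spp1 (0.03) also had log2 fold changes above 0, and that of Lif was -0.00019. Il34 is the second ligand of the Csf1 receptor, at 1.82 RPKM with AS and 1.66 with the vehicle, well under Csf1. Lower in the AS library were Mif, the macrophage migration inhibitory factor, with 87.2 and 127.6 RPKM (log2 fold change -0.55), Il18 (-0.54), Tslp (-0.35) and Tgfb1 (-0.21). The median of the 17 was 0.10.

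Genes with a part in shedding, transcription control or mRNA decay, whether they promote or restrain it, were compared in the same way. Of 8 proteases and regulators analysed, 0 passed 1.5-fold. Adam17 had 14.8 RPKM with AS and 12.2 with the vehicle (log2 fold change 0.28) and Adam10, the main sheddase of Cxcl16 and of Cx3cl1 in resting cells, 22.5 and 19.4 RPKM (0.21). Mmp3 was the lowest, at -0.38. Of 25 transcription control genes (NF-κB subunits, inhibitors and kinases, AP-1 and C/EBP factors, Egr1, Stat3 and Irf1), 13 were above and 12 below 0, none past 1.5-fold, with a median of 0.03. Nfkbia, an inhibitor that NF-κB itself induces, had 32.2 RPKM with AS and 30.7 with the vehicle (0.07). Fosl1, an AP-1 subunit, had the highest value of the list (0.36) and Tnfaip3 (A20), another NF-κB-induced inhibitor, the lowest (-0.42).

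Of 12 genes that control mRNA decay, none passed 1.5-fold and the median was -0.05. Hnrnpd (AUF1), which binds AU-rich elements, had the lowest log2 fold change (-0.57), with 73.9 RPKM with AS and 109.9 with the vehicle. Zc3h12c, a relative of the RNase that cuts inflammatory transcripts, had the highest log2 fold change (0.51). Zfp36 (tristetraprolin), the best known factor for decay of Csf2 mRNA, had 0.456 RPKM with AS and 0.488 with the vehicle (log2 fold change -0.08.) Whether any of these bears on the 7 genes was not tested.

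**Figure D4:**
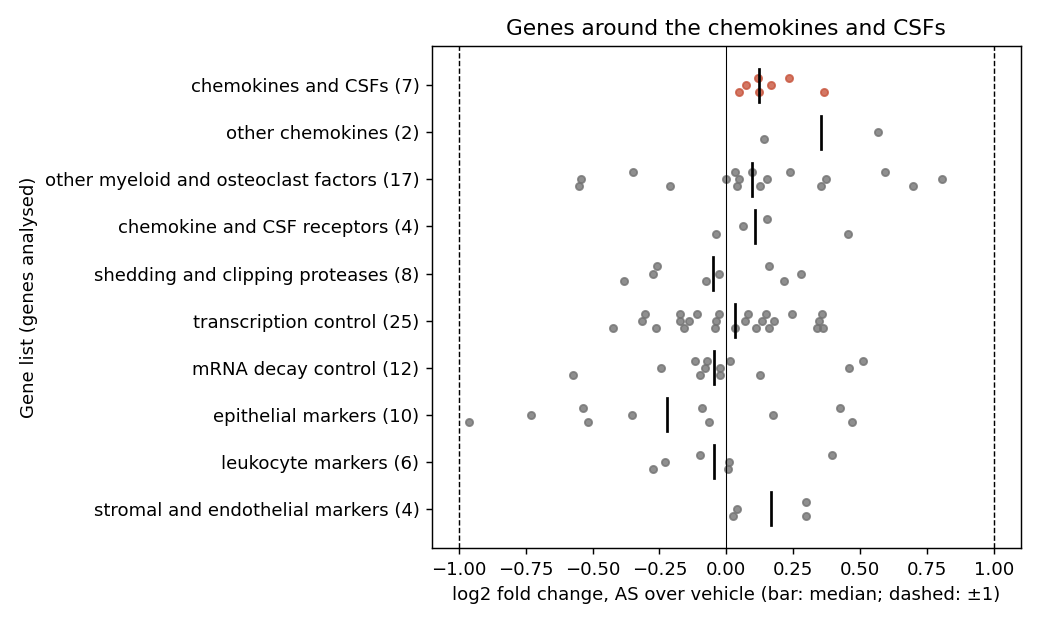
Log2 fold change of AS over vehicle (horizontal axis) for every gene analysed in the 7 chemokine and colony-stimulating factor genes (red) and in 9 lists around them (grey, number of genes in brackets), with a bar at each median and dashed lines at ±1. The 7 genes span 0.05 to 0.37, while the epithelial markers reach from -0.96 to 0.47.

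The epithelial markers differed over a wider range than the 7 genes did. Of the 10, 3 were above and 7 below 0, 2 were lower by at least 1.5-fold (Krt14 at -0.96 and Krt19 at -0.73), and their median was -0.22. Esrp1, an epithelial splicing factor, had the highest value (0.47). Their summed level was 1855 RPKM with AS and 2365 with the vehicle. The 6 leukocyte markers had a median of -0.05 and summed to 32.1 RPKM with AS and 35.9 with the vehicle, most of it from Cd68, a lysosomal protein gene, at 24.0 and 28.1 RPKM. Lyz2 (lysozyme) had the highest log2 fold change of them (0.40) and Itgam the lowest (-0.28). Of 11 stromal and endothelial markers 4 were analysed, from Pdgfra (0.03) to the collagen gene Col3a1 (0.30), with a median of 0.17 and a sum of 6.08 and 5.67 RPKM. The part of these shifts in the values of the 7 genes was not tested. In a culture of 1 line, fewer cells expressing a marker cannot be told apart from less RNA per cell. With each condition 1 library, anything else by which the dishes differed cannot be told apart from the treatment.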

How the data were processed

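RNA-seq was made from 1 library of 4T1 cells per condition with a stranded mRNA kit. Per the labels, the submitters' processing notes name fastp 0.23.4, STAR 2.5.3a and featureCounts, and give GRCh38 as the build. The symbols and exon lengths are those of mouse genes, and coordinates here are of GRCm38. The authors deposited RPKM per library, a log2 of the mean CPM over both libraries, and 3 columns of their own comparison (a log2 fold change, a p-value and its FDR), which were not used. Its header names no unit for these values, which RPKM was found to fit. The filter on low genes is not given in the sources used here, and the lowest mean was 29.5 reads.

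Whole reads were recovered from RPKM, within 0.01 reads, where the GENCODE M21 exon length gave whole numbers in both libraries (12715 genes, the 7 members among them). For 1385 further genes they came from the ratio of the RPKM values as a fraction of whole numbers, with the multiple set by the mean log2 CPM. The other 97 genes have no interval. The recovery was tested on simulated data.

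The log2 fold change is that of RPKM + 0.1, and genes past 2-fold, or at least 1.5-fold, were counted with no p-value, since there are no replicates. Intervals are 95% Clopper-Pearson (ratios), exact Poisson (levels) and normal-approximation (pairs). Alternatives were 0 or 1 RPKM added, 4 scalings of the recovered reads (totals, TMM, median-of-ratios, upper quartile), and minimum means of 50 reads or 1 RPKM. The members and lists were chosen with earlier results of these data known. The named genes are the members, every analysed gene of the lists of other chemokines and of myeloid and osteoclast factors, and the extremes of the other lists. Outside that rule, Csf1r, Adam10, Nfkbia, Zfp36, Krt18, Krt19, Epcam, Ptprc and Cd68 were named after their values were seen, and the count of ATTTA and the comparison of pairs were added then. A planned comparison of protein sequences was not made. Python 3.11.15, numpy 2.4.6, pandas 2.3.3, scipy 1.17.1 and matplotlib 3.10.9 were used.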

Additional observations from a re-analysis of the deposited data

How the results depend on the processing

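The counts of members past 2-fold and 1.5-fold were 0 under all 8 alternatives. Their median log2 fold change, 0.12 as reported, ranged from 0.05 (upper-quartile scaling) to 0.13. Of 79 values recomputed, 5 moved by more than the counting error: Cxcl5 to -0.02 with TMM and with median-of-ratios scaling, and with upper-quartile scaling Cxcl5 to -0.03, Cxcl1 to 0.29 and Csf1 to -0.0060. All genes past 2-fold numbered 138 as reported and from 54 (1 RPKM added) to 227 (0 RPKM added). The minimum mean of 50 reads left out Csf2, which had 49 in each library. The minimum means of 50 reads and of 1 RPKM only leave genes out. Under them the log2 fold changes of the genes kept could not move, though they are counted among the 79. No paired analysis was possible because each condition has 1 library. The spread between dishes is unknown, so differences as small as these cannot be set against it.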
